A study of Mus musculus with 20 samples.

Results

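Srebf1 and Srebf2 encode the sterol regulatory element-binding proteins (SREBPs). Scap, Insig1, Insig2, Mbtps1 and Mbtps2 encode proteins that hold, move and cleave them. These 7 genes were taken by name, with no threshold on a measured value, but with earlier results of these data known. All 7 matched a gene in the counts and passed the low-count filter. They are 7 of 26830 genes with a count and of 17573 genes tested. The livers were right liver lobes of male fetuses of the outbred strain CD-1 IGS at embryonic day 18.5. The groups were 10 fetuses from control pregnancies and 10 from pregnancies under maternal nutrient restriction (MNR), with 2 littermates from each of 5 litters, named A to E, in each group. The labels used here give neither the diet nor the days of restriction, no genetic change and no sequencing batch. The letters are separate in each group, so litter A of the controls and litter A of the MNR group had different mothers.

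SREBPs are transcription factors made as precursors in the membrane of the endoplasmic reticulum. SCAP, encoded by Scap, binds the precursor and senses sterols, and INSIG proteins hold the complex in place when sterols are plentiful. When sterols are scarce, SCAP carries the precursor to the Golgi in COPII vesicles, where the site-1 protease (Mbtps1) and then the site-2 protease (Mbtps2) release the active part. SREBP-1, from Srebf1, acts mainly on fatty acid synthesis, and SREBP-2, from Srebf2, mainly on cholesterol synthesis and uptake. The liver makes mostly the SREBP-1c form of SREBP-1, whose transcription is raised by insulin and by the oxysterol receptor LXR. INSIG1 is itself an SREBP target.

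Both SREBP-1 forms come from the same gene and differ at their amino end, because 2 transcription starts use different first exons. The first coding bases of the 2 forms, read from the GENCODE M1 transcripts of mm9 (minus strand of chromosome 11), are shown since the transcript counts below turn on how little separates them. Capitals mark the coding bases of the form's own first exon, and lower case marks the first bases that both forms share. Coordinates are those of the capitals.
Upstream start (Srebf1-005, the SREBP-1a form, chr11:60033955-60034045): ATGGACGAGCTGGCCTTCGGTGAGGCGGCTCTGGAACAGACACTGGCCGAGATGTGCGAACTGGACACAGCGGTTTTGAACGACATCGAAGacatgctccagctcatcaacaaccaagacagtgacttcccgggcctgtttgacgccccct
Downstream start (Srebf1-201, the SREBP-1c form, chr11:60023838-60023856): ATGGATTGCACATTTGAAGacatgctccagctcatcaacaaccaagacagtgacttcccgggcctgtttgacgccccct
The upstream form has 91 coding bases of its own and the downstream form 19. From the shared exon on, both were annotated with the same sequence, in coding regions of 3405 and 3333 bases.

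Srebf1 was lower in livers of MNR fetuses, and it was the only one of the 7 regulators that passed the test. The other SREBP gene, Srebf2, differed little between the groups. Insig1 had a lower mean in MNR, Scap and Insig2 had a higher mean, and the protease genes differed by 1.03-fold and 1.09-fold. One of 7 regulators was called, against 0.666% of all genes tested, and against 0.25% called lower. Called means an adjusted p under 0.05 in edgeR's quasi-likelihood test over litters, with Benjamini-Hochberg adjustment over all genes tested.

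Srebf1 (ENSMUSG00000020538) lies at chr11:60012591-60036083 on the minus strand of mm9. Levels below are CPM (counts scaled to a common library size) of a litter, with the 2 littermates summed. In control litters A to E Srebf1 stood at 187, 148, 197, 189 and 171 CPM. In MNR litters A to E it stood at 93.7, 85.4, 105, 146 and 115 CPM. Every MNR litter lay below every control litter, with MNR litter D and control litter B closest to each other. The mean fell from 178 ± 19.7 to 109 ± 23.7 CPM (SD, n = 5 litters each), a 1.64-fold decrease, with a log2 fold change of -0.71 (SE 0.13). The adjusted p of edgeR's quasi-likelihood test was 0.0436, and Srebf1 ranked 79 by p among the genes tested. Litters of the groups failed to overlap for 4.5% of all genes tested.

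Among single fetuses Srebf1 ranged from 128 to 209 CPM in controls (median 184) and from 77.2 to 154 CPM in MNR (median 104). Of the 10 MNR fetuses 8 were below the lowest control fetus, and the other two were the fetuses of MNR litter D. Littermates differed at most 1.30-fold, in control litter B. The spread between litters was wider, from 148 to 197 CPM in controls and from 85.4 to 146 CPM in MNR. In bulk liver, fewer cells of a type and less RNA per cell cannot be told apart. Rai1, a neighbour on the opposite strand, shares 109 exon bases with Srebf1. It had 301 to 571 counts per fetus, where Srebf1 had 1292 to 5650.

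The call of Srebf1 was lost when any of 8 litters was left out. Without control litter A, C, D or E, or without MNR litter A, B, C or E, the log2 fold change was -0.73 to -0.63 and edgeR's adjusted p was 0.0746 to 0.119. Without control litter B it was 0.0175, and without MNR litter D 0.0083. From the first littermates alone the log2 fold change was -0.66 and the adjusted p 0.313, and from the second littermates alone -0.75 and 0.00408. Calls over all genes moved in the same fits: 117 with all litters, and 0 to 30 with 1 of those 8 litters left out. They were 843 without control litter B, 512 without MNR litter D, 0 from first and 499 from second littermates.

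Srebf2 (ENSMUSG00000022463, chr15:81977696-82035806, plus strand) gave 91.7, 78.4, 94.1, 102 and 94.2 CPM in control litters A to E. MNR litters A to E gave 85.8, 74.6, 78.5, 95.8 and 92.1 CPM. The groups overlapped over most of their range, with litter B lowest in both. The means were 92.2 ± 8.68 and 85.3 ± 8.94 CPM, with a log2 fold change of -0.11 (SE 0.09, adjusted p 0.512 by edgeR). The microRNA gene Mir33 lies within Srebf2 and shares no exon base with it.

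**Figure D1:**
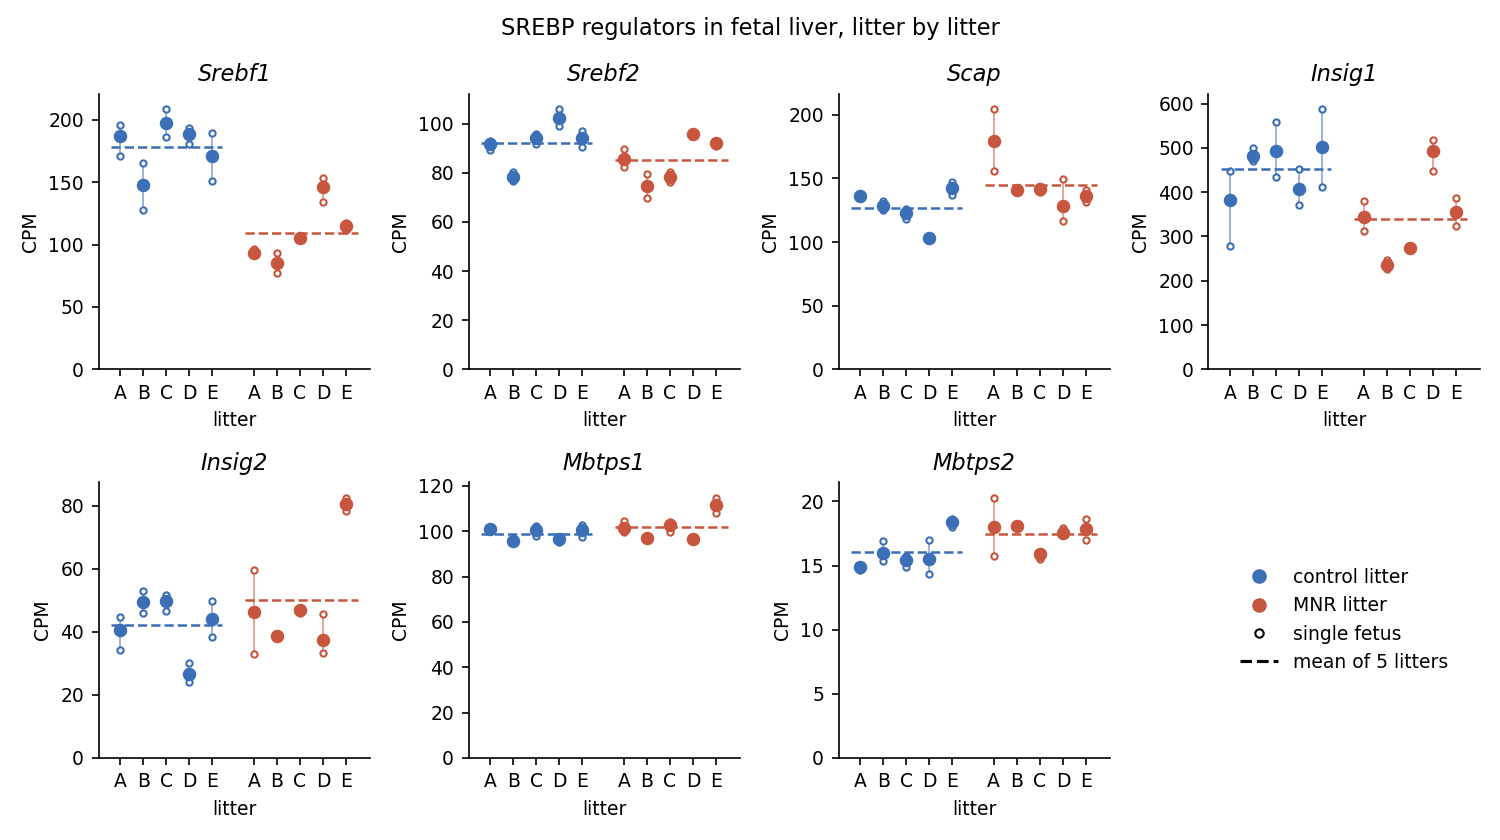
CPM of the 7 regulators (vertical axes, from 0) in control and MNR litters A to E (horizontal axes). Filled points are litters, open points joined by a line are the 2 littermates, and dashed lines are means of 5 litters. For Srebf1 the 5 MNR litters sit between 85.4 and 146 CPM, all below the control litters, whereas the groups overlap for the other 6 genes.

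The ratio of Srebf1 to Srebf2 within a litter does not depend on library scaling. As log2 of the litter counts it was 1.03, 0.91, 1.07, 0.89 and 0.86 in control litters A to E, and 0.13, 0.20, 0.42, 0.61 and 0.32 in MNR litters A to E. All 5 MNR litters were below all 5 control litters. The mean log2 ratio fell from 0.95 ± 0.09 to 0.33 ± 0.19, a difference of -0.62. The two-sided exact permutation p was 0.00794, the smallest that 252 splits of 10 litters into 5 and 5 allow. Adjusted over the 19 shares and ratios tested it was 0.151, the lowest value that a single one of them could reach alone, so this test could not have called it.

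The retention genes did not pass the test. Insig1 (ENSMUSG00000045294, chr5:28397952-28405201, plus strand), whose product holds SCAP in the endoplasmic reticulum, gave 383, 482, 492, 406 and 502 CPM in control litters A to E. In MNR litters A to E it gave 344, 236, 274, 492 and 355 CPM. Of the 5 MNR litters 4 were below the lowest control litter, and MNR litter D was level with the highest control litters. The means were 453 ± 54.5 and 340.2 ± 98.0 CPM, with a log2 fold change of -0.41 (SE 0.17, adjusted p 0.21 by edgeR). Without MNR litter D the log2 fold change was -0.58 and edgeR's adjusted p 0.0459, in a fit that called 512 of all genes against 117 with all litters. Of 20 alternatives this was the only 1 with an adjusted p under 0.05 for Insig1. With any other litter left out the log2 fold change was -0.47 to -0.31 and the adjusted p 0.229 to 0.356. The littermates of control litter A differed 1.61-fold in Insig1.

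Insig2 (ENSMUSG00000003721, chr1:123200930-123229166, minus strand), the second retention gene, gave 40.7, 49.6, 49.7, 26.8 and 44.2 CPM in control litters A to E. In MNR litters A to E it gave 46.3, 38.8, 46.9, 37.5 and 80.7 CPM. Only MNR litter E stood above the control range, with both of its fetuses high (78.5 and 82.7 CPM). The means were 42.2 ± 9.41 and 50.1 ± 17.7 CPM, with a log2 fold change of 0.25 (SE 0.22, adjusted p 0.568 by edgeR). Without MNR litter E the log2 fold change was 0.0069. The log2 ratio of Insig1 to Insig2 was 3.45 ± 0.28 in controls and 2.78 ± 0.59 in MNR, lower than every control litter in 4 of 5 MNR litters. Its exact permutation p was 0.0635 and 0.241 after adjustment.

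Scap (ENSMUSG00000032485, chr9:110235792-110287450, plus strand) gave 136, 128, 123, 103 and 143 CPM in control litters A to E. In MNR litters A to E it gave 180, 141, 142, 128 and 136 CPM. All 5 MNR litters were above the control mean and the ranges overlapped. The means were 127 ± 15.0 and 145 ± 19.9 CPM, with a log2 fold change of 0.20 (SE 0.10, adjusted p 0.317 by edgeR). Without MNR litter A the log2 fold change was 0.11. Scap shares 985 exon bases with 5830462I19Rik on the opposite strand, which had 3 to 19 counts per fetus.

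Set against the INSIG genes, Scap stood differently for each. The log2 ratio of Scap to Insig1 was -1.84 ± 0.21 in controls and -1.19 ± 0.48 in MNR, with 4 of 5 MNR litters above every control litter. Its exact permutation p was 0.0397 and 0.241 after adjustment. The log2 ratio of Scap to Insig2 was 1.61 ± 0.27 and 1.59 ± 0.49, a difference of -0.02 with an exact permutation p of 0.944. The sign of that difference turned when control litter A, control litter D or MNR litter E was left out (0.008, 0.06 and 0.18).

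The protease genes were the steadiest of the 7 regulators across litters. Mbtps1 (ENSMUSG00000031835, chr8:122032056-122082661, minus strand) had a coefficient of variation over control litters of 2.42%, against 11.0% for Srebf1. It gave 101, 95.8, 101, 96.7 and 100.3 CPM in control litters A to E, and 102, 97.1, 103, 96.7 and 112 CPM in MNR litters A to E. The log2 fold change was 0.04 (SE 0.05, adjusted p 0.686 by edgeR), and 0.0088 without MNR litter E. Mbtps2 (ENSMUSG00000046873, chrX:153973303-154036647, minus strand) gave 14.9, 16.0, 15.5, 15.5 and 18.4 CPM in control litters, and 18.0, 18.1, 15.9, 17.6 and 17.8 CPM in MNR litters. Its log2 fold change was 0.12 (SE 0.07, adjusted p 0.353 by edgeR). Part of the Mbtps2 count cannot be assigned with certainty, since 2867 of its exon bases are shared with Yy2 on the same strand, which had 8 to 34 counts per fetus. The log2 ratio of Mbtps1 to Mbtps2 differed by -0.08 between the groups (exact permutation p 0.302, adjusted 0.521).

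**Figure D2:**
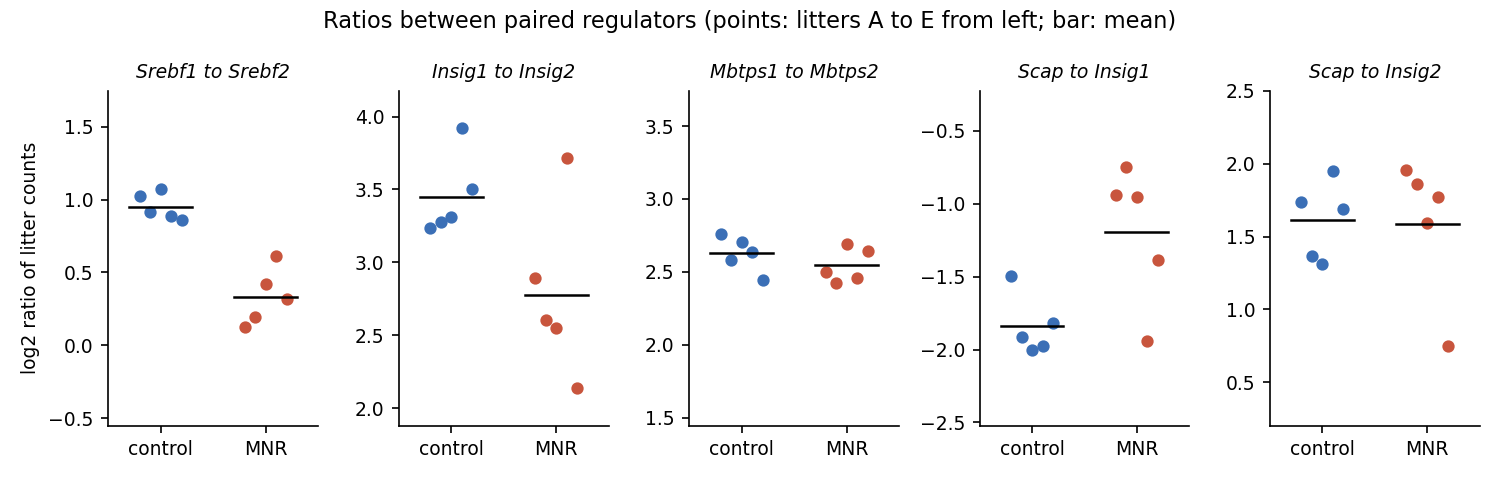
Log2 ratio of the litter counts of 2 regulators (vertical axes, each spanning the same number of log2 units) in control and MNR litters (horizontal axes), with points for litters A to E from left to right and bars for the means. The Srebf1 to Srebf2 ratios of MNR litters, 0.13 to 0.61, lie below all those of control litters, and the other ratios overlap.

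Levels of different genes were compared per length, as TPM, in which counts are divided by transcript length and scaled to a common total. In control litters Insig1 was the most abundant regulator at 255 ± 32.0 TPM, followed by Srebf1 at 125 ± 17.1 and Scap at 102 ± 11.6 TPM. Insig2 stood at 47.7 ± 9.84, Srebf2 at 32.0 ± 3.32, Mbtps1 at 28.0 ± 1.0 and Mbtps2 at 9.50 ± 0.49 TPM. In MNR litters Insig1 stood at 191 ± 50.2, Scap at 118 ± 20.6, Srebf1 at 76.9 ± 15.1 and Insig2 at 59.6 ± 19.9 TPM. Srebf2 stood at 29.8 ± 2.96, Mbtps1 at 28.9 ± 2.26 and Mbtps2 at 10.2 ± 0.61 TPM. Srebf1 thus came after Insig1 in controls, and after Insig1 and Scap in MNR.

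Fetus by fetus, Insig1 was above Srebf1 in 20 of 20, Scap above Insig2 in 20 of 20 and Mbtps1 above Mbtps2 in 20 of 20. Srebf1 was above Scap in 9 of 20 fetuses, and the order differed by group: Srebf1 was above Scap in 4 of 5 control litters and below it in 4 of 5 MNR litters. Insig2 exceeded Srebf2 in 18 of 20 and Srebf2 exceeded Mbtps1 in 16 of 20 fetuses. The order of the lower genes, and the gaps between the upper ones, also depended on the length used. With the union of a gene's exons as its length, control Insig2 stood at 24.7 TPM, below Srebf2 at 37.8 and Mbtps1 at 29.8 TPM. Control Insig1 then stood at 348, Srebf1 at 64.6 and Scap at 49.7 TPM. How reads shared by transcripts were counted was not given, so levels of genes with many annotated transcripts are uncertain. Srebf1 has 14, Insig2 13, Scap 10 and Insig1 1.

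**Figure D3:**
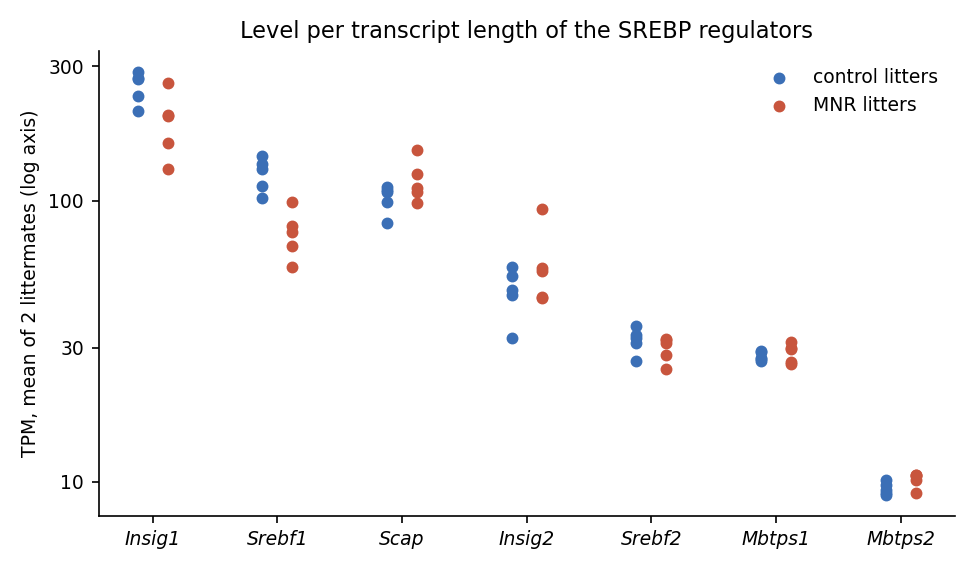
TPM per litter, as the mean of 2 littermates (vertical axis, log scale), of the 7 regulators in order of their control level (horizontal axis), with control litters in blue and MNR litters in red. Insig1 leads at a control mean of 255 TPM and Mbtps2 is last at 9.50 TPM, and Srebf1 and Scap change places between the groups.

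All 14 annotated Srebf1 transcripts had counts and were tested on the table of all transcripts. Each had a log2 fold change below 0, from -0.90 to -0.42, and 10 of 14 were called lower, where 0.27% of all 55494 transcripts tested were called lower. Transcripts of a gene share reads, so these are not 14 separate results. Srebf1-201, which begins at the downstream start, had counts of 1389, 1020, 1453, 1732 and 1138 in control litters A to E, and of 660, 580, 839, 1063 and 766 in MNR litters A to E. Its log2 fold change was -0.76 (SE 0.11, adjusted p 0.0189 by edgeR), the lowest adjusted p of the 14. Srebf1-005, which begins at the upstream start, had counts of 1376, 938, 1434, 1708 and 1122 in control litters and of 680, 571, 860, 1128 and 739 in MNR litters. Its log2 fold change was -0.70 (SE 0.13, adjusted p 0.0325 by edgeR).

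The counts of both forms were nearly the same in every litter. The 2 transcripts share 4147 bases, 96.5% of the upstream form and 99.5% of the downstream form, and only 152 and 19 bases differ. No source used here says how reads matching several transcripts were counted, and these counts cannot separate SREBP-1a from SREBP-1c. The log2 ratio of downstream to upstream form was 0.039 ± 0.046 in controls and -0.018 ± 0.055 in MNR, a difference of -0.057 (exact permutation p 0.119).

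The 4 longest transcripts, of 4063 to 4299 bases, took 16.3% to 18.6% of the Srebf1 counts each in every litter, and 69.6% together. Shares of the 14 transcripts did not pass the test between the groups. The largest difference was that of Srebf1-009, a short transcript from the downstream start, at 1.94% ± 0.16 of Srebf1 counts in controls and 2.36% ± 0.27 in MNR (exact permutation p 0.0397, adjusted 0.241). Srebf1-009 was also the transcript with the smallest log2 fold change, -0.42 (SE 0.16, adjusted p 0.215 by edgeR). The largest, -0.90 (SE 0.17, adjusted p 0.0408), was that of Srebf1-011, a short transcript without a coding region, with 31 to 109 counts per litter. Without control litter A or C, or without MNR litter A, B or E, 0 Srebf1 transcripts were called, and without MNR litter D 13 were. Leaving out control litter D or MNR litter C gave 1 and leaving out control litter E gave 2. Over all transcripts the fits that called 0 of Srebf1 called 4 to 21, and that without MNR litter D 1100, against 319 with all litters.

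**Figure D4:**
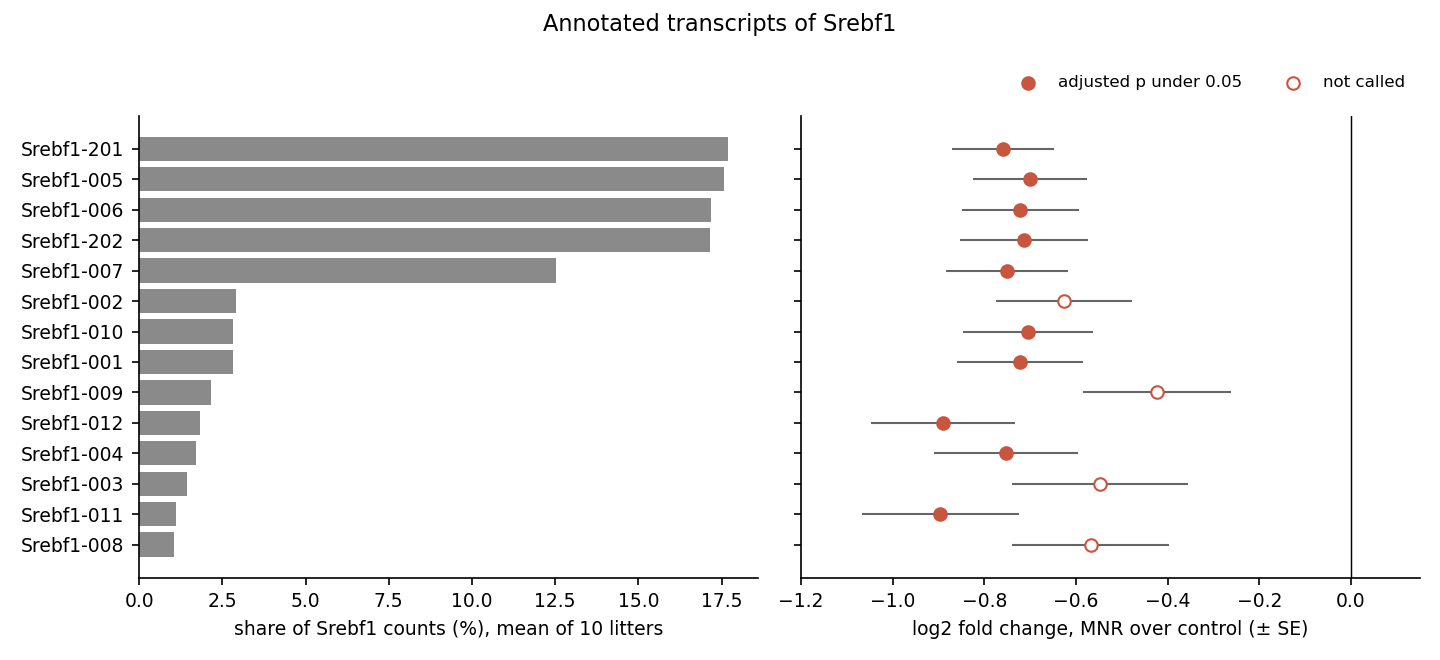
The 14 annotated Srebf1 transcripts, ordered by their mean share of Srebf1 counts over 10 litters in percent (left) and with their log2 fold change, MNR over control, as a point with its standard error (right). All points lie below 0, and filled points mark the 10 transcripts with an adjusted p under 0.05.

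Of the other regulators' transcripts 0 were called by edgeR. Insig2 had 12 tested, all with a log2 fold change above 0 (0.11 to 0.68), 1 of them with an unadjusted p under 0.05. Scap had 10 tested, 9 above 0, again 1 with an unadjusted p under 0.05. For Mbtps2, Mbtps1 and Srebf2 (7, 2 and 2 tested) 0 had an unadjusted p under 0.05, and the single transcript of Insig1 had such a p.

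The sequence upstream of the start is shown for Srebf1, Srebf2 and Insig1, because the first fell, the second hardly differed, and the third is the INSIG gene with the larger difference. All 7 genes matched RefSeq promoter entries, with 12 starts in all, on the build GRCm38.p6, which is not the build of the counts. Capitals mark matches, on either strand, to the core sterol regulatory element ATCACCCC, the NF-Y box CCAAT, the Sp1 box GGGCGG, the E-box CACGTG and the LXR element of the Srebf1 promoter. The last was spelled after the element known from this very gene, so its match in Srebf1 is no independent observation. No marked match overlaps another.
Srebf1, downstream start (chr11:60210472-60210721, minus strand): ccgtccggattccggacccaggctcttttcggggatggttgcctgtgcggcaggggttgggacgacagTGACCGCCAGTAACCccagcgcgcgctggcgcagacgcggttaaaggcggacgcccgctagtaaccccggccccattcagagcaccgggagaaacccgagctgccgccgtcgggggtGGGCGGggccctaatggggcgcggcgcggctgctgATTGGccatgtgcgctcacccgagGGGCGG
Srebf2 (chr15:82147019-82147268, plus strand): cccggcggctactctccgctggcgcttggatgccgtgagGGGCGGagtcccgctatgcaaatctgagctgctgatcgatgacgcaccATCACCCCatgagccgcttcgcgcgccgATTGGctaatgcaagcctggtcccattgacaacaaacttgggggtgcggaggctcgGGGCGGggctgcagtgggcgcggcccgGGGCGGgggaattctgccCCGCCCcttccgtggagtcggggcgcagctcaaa
Insig1 (chr5:28071162-28071411, plus strand): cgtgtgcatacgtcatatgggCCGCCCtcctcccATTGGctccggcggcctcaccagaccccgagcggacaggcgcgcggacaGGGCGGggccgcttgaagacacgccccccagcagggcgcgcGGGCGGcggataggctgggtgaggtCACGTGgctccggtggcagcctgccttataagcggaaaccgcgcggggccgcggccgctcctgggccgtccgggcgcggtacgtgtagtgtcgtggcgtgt
The Srebf1 window was tied to the downstream start by sequence. Its RefSeq entry runs on past the start, beyond the bases printed, and holds there the first 30 bases of Srebf1-007, beginning at position 6.

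In the Srebf1 window the LXR element began at position -182, counted from the RefSeq start, followed by Sp1 boxes at -65 and -6 and an NF-Y box at -30. The LXR element was found in 4 of 32851 promoter windows of this length (0.0122%). In the Srebf2 window ATCACCCC began at -163 and the NF-Y box at -135, beside 4 Sp1 boxes. ATCACCCC was found in 0.654% of all windows and in 1 of the 12 windows of the regulators, that of Srebf2. The Insig1 window held an NF-Y box at -216, 3 Sp1 boxes and an E-box at -101. Among the 12 windows 5 held an NF-Y box and 8 an Sp1 box, against 33.8% and 32.7% of all windows, and 2 held the E-box, against 6.02%. A match describes these letters only.

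The genes on which the SREBPs act, and those that act on the SREBPs, were read from lists in the same fit. The lists too were chosen with earlier results of these data known. Of 16 genes of fatty acid synthesis, the SREBP-1 side, 5 fell, 0 rose and 11 did not pass the test. Of all genes tested 0.25% were called lower. All 16 had a log2 fold change below 0, with a median of -0.75, against -0.0027 over all genes tested. The stearoyl-CoA desaturase gene Scd1 fell from 263 ± 77.2 to 91.6 ± 22.7 CPM (log2 fold change -1.52, SE 0.23, adjusted p 0.0262 by edgeR). Scd2, a second desaturase gene, fell from 803 ± 208 to 329 ± 104 CPM (-1.29, adjusted p 0.0345). Fasn, encoding fatty acid synthase, fell from 269 ± 58.3 to 119 ± 34.5 CPM (-1.17, adjusted p 0.0374). Pnpla3, a lipid droplet protein gene and SREBP-1c target, fell from 36.9 ± 14.0 to 14.4 ± 4.94 CPM (-1.35, adjusted p 0.044). Acss2, which makes acetyl-CoA from acetate, fell from 51.6 ± 14.4 to 24.8 ± 3.98 CPM (-1.06, adjusted p 0.0416), with overlapping litters. The log2 fold changes of these 5 genes were larger in size than that of Srebf1 (-0.71), a difference that was not tested. The 5 are the genes that passed the test, which favours larger changes. The median of all 16, -0.75, was close to the value of Srebf1. Without control litter A, C, D or E, or without MNR litter A, B or E, 0 genes of this list were called by edgeR. Without MNR litter C 1 was called, without MNR litter D 7 and without control litter B 9.

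Of 21 genes of sterol synthesis, the SREBP-2 side, 20 matched and were tested, 1 fell and 19 did not pass. The share of all genes tested that was called lower was 0.25%. All 20 had a log2 fold change below 0, with a median of -0.53, and all 20 had an unadjusted p under 0.05, as did 19.6% of all genes. Mvd, encoding mevalonate diphosphate decarboxylase, fell from 21.7 ± 4.63 to 11.1 ± 2.82 CPM (log2 fold change -0.97, SE 0.18, adjusted p 0.0416 by edgeR). The lanosterol demethylase gene Cyp51 stood at 100.3 ± 22.5 and 61.0 ± 8.56 CPM (-0.72, adjusted p 0.0537). Dhcr7, which acts late in cholesterol synthesis, stood at 86.5 ± 17.5 and 53.0 ± 7.91 CPM (-0.71, adjusted p 0.0564). Srebf2, at -0.11, was thus much closer to 0 than the median of this list. Without control litter A, C, D or E, or without MNR litter A, B, C or E, 0 of them were called by edgeR. When control litter B was left out 16 were called, and 11 when MNR litter D was. Over all genes the fits that called 0 of this list called 0 to 30, and the other fits 843 and 512. DESeq2 called 16 of these genes and 10 of the fatty acid genes, and limma-voom 15 and 10. Both called more genes than edgeR over the whole table, where edgeR called 117. DESeq2 called 1163 of all 17573 genes it tested and limma-voom 1088 of 16136. The counts of these 2 tools for the lists below are to be read against those totals.

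**Figure D5:**
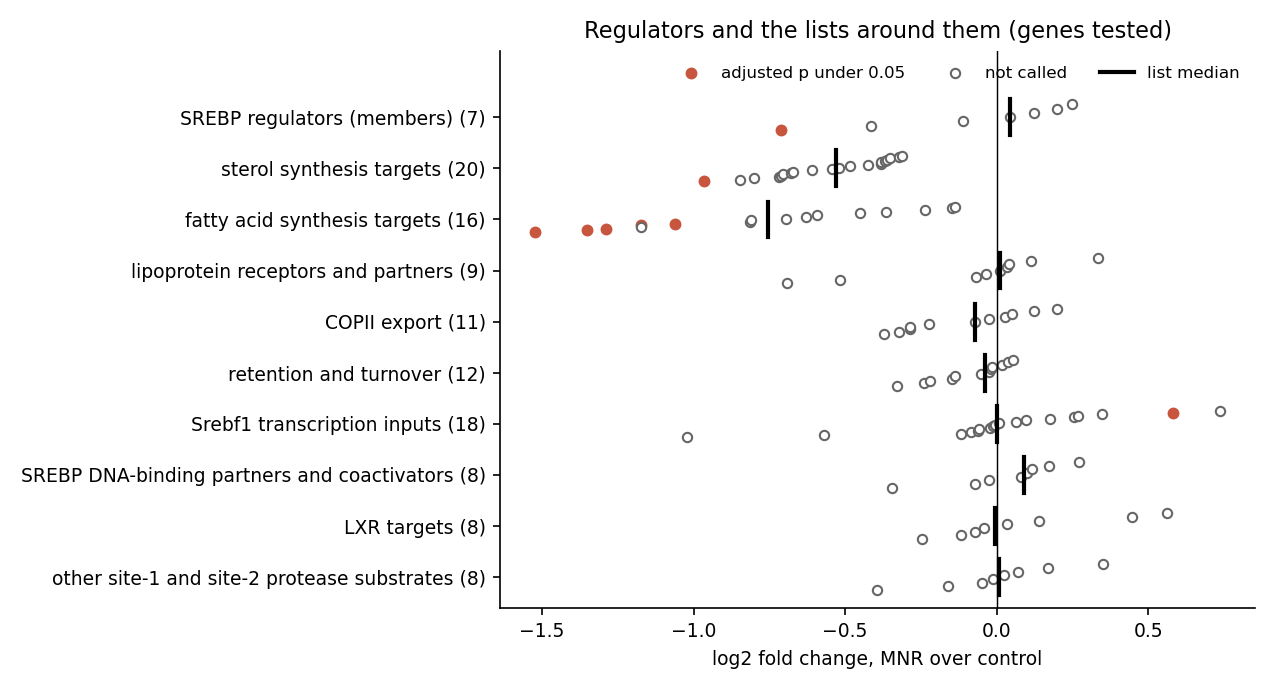
Log2 fold change, MNR over control (horizontal axis), of every tested gene of the 7 regulators and of 9 lists around them (rows, with the number tested), with filled points for an adjusted p under 0.05 and a bar at the list's median. Both target lists lie wholly below 0, with medians of -0.53 and -0.75, and the medians of the other lists lie between -0.07 and 0.09.

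Genes that could act on Srebf1 transcription (insulin signalling, LXR and its partner, and other regulators) gave 1 of 18 called. Of all genes tested 0.666% were called, and 0.415% were called higher. Irs2, an adapter of the insulin receptor, rose from 55.0 ± 6.79 to 82.2 ± 9.08 CPM (log2 fold change 0.58, SE 0.10, adjusted p 0.0331 by edgeR), with no overlap of litters. Litters did not overlap for 3 of the 18, against 4.5% of all genes tested. The insulin receptor gene Insr stood at 165 ± 19.4 and 199 ± 6.26 CPM (0.27, adjusted p 0.102). Rxra, the partner of LXR, stood at 219 ± 18.6 and 261 ± 9.06 CPM (0.26, adjusted p 0.0785). The list's median was 0.00, with 9 genes above 0 and 9 below. An unadjusted p under 0.05 was found for 7 of 18, against 19.6% of all genes tested. The list's count of called genes was 0 without control litter A, C, D or E or MNR litter A, B, C or E. It was 3 when control litter B and 2 when MNR litter D was left out. Over all genes the fits that called 0 of this list called 0 to 30, and the other fits 843 and 512.

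The LXR targets listed here, other than Srebf1, gave 0 of 8 called by edgeR, 0 by DESeq2 and 1 by limma-voom, with 4 above 0 and 4 below. They are a selection that holds no gene of the fatty acid synthesis list. Among the 8, 1 had an unadjusted p under 0.05, against 19.6% of all genes tested. Lpcat3, a phospholipid remodelling enzyme, had the smallest p (log2 fold change -0.25, SE 0.08, adjusted p 0.135). The cholesterol exporter gene Abca1 stood at 261 ± 18.3 and 288 ± 36.0 CPM (0.14, adjusted p 0.416), and Abcg8, a subunit of a biliary sterol transporter, at 8.22 ± 3.52 and 12.1 ± 6.43 CPM (0.56, adjusted p 0.471).

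The COPII coat genes, whose proteins form the vesicles that carry SCAP, gave 0 of 11 called by edgeR, and 4 by DESeq2 and by limma-voom. Among the 11, 4 had an unadjusted p under 0.05, against 19.6% of all genes tested. Sec13, a subunit of the outer coat, stood at 48.5 ± 5.81 and 37.5 ± 2.41 CPM (log2 fold change -0.37, SE 0.08, adjusted p 0.0587). Sar1a, the GTPase that starts the coat, stood at 77.3 ± 6.56 and 63.5 ± 4.36 CPM (-0.29, adjusted p 0.0704). Sec24b, a cargo-binding subunit, stood at 41.0 ± 2.29 and 47.0 ± 2.66 CPM with no overlap of litters (0.20, adjusted p 0.0993). Litters did not overlap for 1 of the 11, against 4.5% of all genes tested. The list's median was -0.07.

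Genes of retention and turnover at the endoplasmic reticulum gave 0 of 12 called by edgeR, and 1 by DESeq2 and by limma-voom, with a median of -0.04. Among the 12, 3 had an unadjusted p under 0.05, near the 19.6% of all genes tested. The smallest p belonged to Vcp, an ATPase that extracts proteins for degradation (156 ± 13.5 and 134 ± 3.92 CPM, log2 fold change -0.22, adjusted p 0.105). Faf2, a cofactor of VCP, stood at -0.14 (adjusted p 0.225) and Tmem97, a sterol-responsive membrane protein gene, at -0.33 (adjusted p 0.23).

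DNA-binding partners and coactivators of the SREBPs gave 0 of 8 called by edgeR, 2 by DESeq2 and 3 by limma-voom, with a median of 0.09. Among the 8, 4 had an unadjusted p under 0.05, against 19.6% of all genes tested. Nfyb, a subunit of the NF-Y factor that binds CCAAT, stood at 50.5 ± 3.81 and 39.8 ± 3.83 CPM with no overlap of litters (log2 fold change -0.34, SE 0.08, adjusted p 0.0587). Litters did not overlap for 2 of the 8, against 4.5% of all genes tested. The coactivator genes Crebbp and Ep300 stood at 0.27 (adjusted p 0.0731) and 0.17 (adjusted p 0.139).

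Other substrates of the 2 proteases gave 0 of 8 called by edgeR, and 1 by DESeq2 and by limma-voom, with a median of 0.01. Among the 8, 3 had an unadjusted p under 0.05, against 19.6% of all genes tested. Atf6, an endoplasmic reticulum stress sensor, stood at 42.9 ± 2.25 and 54.8 ± 9.88 CPM (log2 fold change 0.35, SE 0.11, adjusted p 0.111). Creb3l1, a related membrane factor, stood at -0.40 (adjusted p 0.138) and Atf6b at -0.16 (adjusted p 0.228). The 9 lipoprotein receptor genes and partners gave 0 called by edgeR, 2 by DESeq2 and 2 by limma-voom, with 5 above 0 and 4 below. Among the 9, 3 had an unadjusted p under 0.05, against the same 19.6%.

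Within the groups, genes were ranked by how closely they varied with a regulator over the 20 fetuses, as Pearson's r of log2 CPM centred on the group means, among 9367 genes with a mean of at least 10 CPM. Littermates share a dam and all fetuses' values share library depth and cell makeup, so r is a description. Nearest to Srebf1 were Hsd17b7, a sterol synthesis gene (r = 0.87), Fasn (0.86), Spryd4 (0.85), 2500003M10Rik (0.83) and Stard4, a sterol carrier (0.83). Srebf2 came 12th at 0.79, Insig1 ranked 230 at 0.57, and Scap had r = -0.43. Nearest to Srebf2 were Psmc1 (0.91), Ercc3 (0.88), Acsl3 (0.83), Mki67ip (0.83) and Cand1 (0.83), with Srebf1 8th. Nearest to Insig1 were H1f0 (0.80), Pdp2 (0.79), Rabl3 (0.78), Gm6484 (0.76) and Zfp36 (0.75), with Srebf1 at rank 146.

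The counts of a fetus totalled 14925778 to 28016953 (median 19658940), 14925778 to 27848100 in controls and 16703824 to 28016953 in MNR. The 10 hepatocyte markers were all detected and summed to 131736 to 155035 CPM in control litters and 132193 to 152931 CPM in MNR litters. Blood-forming cells were also present. The 10 erythroid markers summed to 34957 to 54195 CPM in control and 35544 to 48377 CPM in MNR litters, with a median log2 fold change of -0.10 and 0 called by edgeR, 0 at an unadjusted p under 0.05. With their mean log2 CPM as a covariate, Srebf1 had a log2 fold change of -0.69 and an adjusted p of 0.0541. The 4 neutrophil markers summed to 1154 to 1347 CPM in control and 1321 to 1917 CPM in MNR litters, with a median log2 fold change of 0.26, 0 called and 4 at an unadjusted p under 0.05. The 4 stellate cell markers summed to 192 to 291 CPM in control and 193 to 257 CPM in MNR litters, with a median of -0.28, 0 called and 2 at an unadjusted p under 0.05. The 4 megakaryocyte markers summed to 194 to 241 CPM in control and 211 to 249.2 CPM in MNR litters, with all 4 above 0, a median of 0.22, 0 called and 3 at an unadjusted p under 0.05. The 6 macrophage markers summed to 236 to 324 CPM in control and 256 to 339 CPM in MNR litters, with 5 above 0, a median of 0.16, 0 called and 1 at an unadjusted p under 0.05. For comparison, 19.6% of all genes tested had an unadjusted p under 0.05. The part of neutrophils, stellate cells, megakaryocytes and macrophages in the difference of Srebf1 was not tested. A set of 3 fetuses, 1 of control litter B and 1 each of MNR litters B and E, held pancreatic transcripts (3 acinar markers summing to 300, 109 and 71.3 CPM, against at most 16.0 CPM in the others). Without them, a setting chosen after seeing the data, the log2 fold change of Srebf1 was -0.71 and its adjusted p 0.0207.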

How the data were processed

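Polyadenylated RNA of 20 fetal livers was sequenced from strand-preserving libraries, per the labels' protocols. The deposited values are raw counts per transcript, 1 table per fetus. Bowtie2, FastQC, edgeR and DESeq2 and the build mm9 are named in the submitters' processing notes. The counting tool, the use of strand and the handling of reads matching several places were not given in the sources used here. A deposited gene table was not used here.

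Transcript counts were summed to genes with GENCODE M1 on NCBIM37, the same assembly as mm9, and 0.0788% to 0.154% of the counts of a fetus matched no gene. Littermates were summed, since the dam received the diet. Genes passing filterByExpr (minimum count 10) were scaled by TMM and tested with edgeR 4.0.16 in R 4.3.3 (quasi-likelihood, two-sided, Benjamini-Hochberg, threshold 0.05), and transcripts likewise. CPM use the TMM-scaled library sizes. TPM use transcript lengths weighted by counts. Ratios and shares were tested by exact permutation over litters. The fit was tested on simulated data. Promoter sequences are RefSeq's.

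Alternatives were RLE and upper-quartile scaling, no filter, either littermate alone, limma-voom (limma 3.58.1), DESeq2 1.42.0, an erythroid covariate, the litter letter as a term, and leaving out each litter. The members and lists were chosen with earlier results of these data known. All regulators are named, and from each list its called genes or, with fewer than 2 called, the genes of smallest p up to 3. Some listed genes are not reported here.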

Additional observations from a re-analysis of the deposited data

Results flagged for a closer look

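Among 38 sets of values checked (each regulator's litters and fetuses, and the ratios, per group), 4 had a single sample set apart from the rest, and chance alone gives about 1 in 20. Scap was far higher in MNR litter A than in the other MNR litters (179.5 CPM), and among single MNR fetuses in the second fetus of that litter (204.5 CPM). Insig2 was far higher in MNR litter E than in the other MNR litters (80.7 CPM). Mbtps2 was lower in MNR litter C than in the other MNR litters (15.9 CPM).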

How the results depend on the processing

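Srebf1 kept its direction under all 20 alternatives (log2 fold change -0.84 to -0.63) and had an adjusted p under 0.05 in 10. It kept the call with RLE or upper-quartile scaling, no filter, second littermates, the replicate block, limma-voom, DESeq2, and without the 3 fetuses with pancreatic transcripts. None of the 7 regulators changed direction.

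The number of regulators called was 1, 0 from first littermates alone, 0 with the erythroid covariate and 0 to 2 when 1 litter was left out. Over the 9 lists 7 genes were called: 15 with upper-quartile scaling, 12 without a filter, 0 from first and 25 from second littermates, 4 with the erythroid covariate, 42 with limma-voom, 41 with DESeq2, 17 without the fetuses with pancreatic transcripts (added after seeing the data), and 0 to 34 without 1 litter. Srebf1 transcripts called were 10, 0 from first littermates and 0 to 13 without 1 litter. Shares and ratios gave 0 called under the 12 alternatives run, which says nothing of stability, since 1 item alone cannot pass the adjustment over 19. The Scap to Insig2 log2 ratio difference (-0.02) ranged from -0.12 to 0.18 without 1 litter, and was 0.008 without control A, 0.06 without control D and 0.18 without MNR E. The cause of these shifts was not tested.

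Same-lettered litters had different mothers, and their deviations correlated at 0.0259, 0.184, 0.148, 0.160 and -0.00928 (A to E), so letters were not taken as pairs. With the letter as a replicate block Srebf1 had an adjusted p of 0.0232, 1 regulator, 16 list genes and 11 Srebf1 transcripts were called, and all genes called were 232 in place of 117. All genes called were 178 with upper-quartile scaling, 499 from second and 0 from first littermates, 215 without the 3 fetuses, 1088 with limma-voom, 1163 with DESeq2 and 0 to 843 without 1 litter.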
